A study of Homo sapiens with 9 samples.

Results

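A total of 896 assembled isoforms were classed as outside every reference gene locus. All 896 were read often enough to be followed through 4 RNA-seq libraries of HEK293 cells. They were chosen from 199618 assembled isoforms by 2 criteria. The first was class code u in the authors' comparison with the reference annotation, the code that Cufflinks gives to a transcript overlapping no annotated locus. The second was a mean of at least 30 in the deposited spike-in-normalised isoform signal over the 4 libraries. Of 1252 isoforms with that code, 896 (71.6%) met the minimum and 356 did not. The 896 came from 860 of 48558 assembled loci. Since the mean signal chose them, their levels are given as a description, and the deposited mark for nonsense-mediated decay played no part in the choice.

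The study depleted RNA decay factors in the b-39 subline of HEK293 Flp-In T-Rex, which derives from human embryonic kidney. Every library came from this subline, which carried a b-globin PTC39 reporter at the Flp-In site, so the control carried the reporter too. The control cells received siRNA against EGFP, a jellyfish-derived gene absent from the human genome. The second group was depleted of XRN1, the third of SMG6 and XRN1 together, and the fourth of UPF1 and XRN1 together. All the RNA was cytoplasmic, released with digitonin, and poly(A)-selected before ScriptSeq v2 library preparation. With 1 RNA-seq library for each group there are no replicates, and a size of change describes these libraries. The series also has libraries of 5' ends and of CAGE tags, not analysed here.

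The RNA levels of the siRNA targets did not fall clearly in the libraries labelled as depleted of them. XRN1 stood at 7.80, 7.31, 10.1 and 6.50 FPKM in the control, XRN1, SMG6/XRN1 and UPF1/XRN1 libraries. SMG6 stood at 4.77, 5.55, 7.66 and 5.97 FPKM in the same order, highest in the library labelled SMG6/XRN1. UPF1 was at 8.59 FPKM in the library labelled UPF1/XRN1, above the control at 6.71 and below XRN1 and SMG6/XRN1 at 11.6 and 11.4. No target was 2-fold lower in FPKM in any comparison. Libraries are therefore called by their labels, and every direction below rests on them. Of 8 genes known to be expressed in HEK293 cells, 6 had a mean of at least 1 FPKM, against 1 of 9 markers of other cell types in the gene table. The other marker of that list, PECAM1, had no locus of that symbol. The summed FPKM of the HEK293 list was 693 to 763 per library and that of the other list 2.16 to 2.87. The single marker above the minimum was INS, whose own isoforms in the isoform table were at 0.

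Transcripts outside annotated genes arise in several known ways. They can be unannotated long non-coding RNAs, transcripts of repeats, enhancers or divergent promoters, separate pieces of a long transcript, or RNA that continues past the annotated end of a gene. Cytoplasmic non-coding RNAs that meet ribosomes can enter nonsense-mediated decay (NMD), because translation of a short reading frame stops early. In that pathway UPF1 is the central RNA helicase and SMG6 the endonuclease that cuts the RNA near the stop codon. XRN1 is the main cytoplasmic 5' to 3' exonuclease, which degrades decapped RNA and the 3' fragment left by an endonuclease cut.

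Most of the 896 isoforms were low. Their mean signal ran from 30.0 to 3262 with a median of 65.6, against a median of 240 for all 61922 isoforms that met the same minimum. At that minimum, isoforms that matched the reference had a median of 311, isoforms of known genes with a new junction 165, and isoforms on the strand opposite to a known gene 79.0. Of the 896, 395 had a mean under 60 and 16 a mean of at least 1000. The spacing of low signals gives the worth of 1 read as 3.85, 4.05, 4.25 and 3.72 in the control, XRN1, SMG6/XRN1 and UPF1/XRN1 libraries. The libraries held 31476538 to 35983465 estimated reads, of which the 896 isoforms took 27287 to 35614. Their median was 14.7 to 19 reads per library, so the counting error of a typical isoform is large.

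Just inside the minimum, TCONS_00024739 had 19.3, 24.3, 46.8 and 29.8 in the control, XRN1, SMG6/XRN1 and UPF1/XRN1 libraries, in the order kept throughout. TCONS_00192677 had 15.4, 36.4, 42.5 and 26.0, and TCONS_00168299 had 16.5, 0, 86.1 and 18.0. Just outside it, TCONS_00165003 had 0, 12.1, 55.3 and 52.1. TCONS_00203373 had 38.5, 40.5, 25.5 and 14.9, and TCONS_00205006 had 38.5, 12.1, 12.8 and 55.8. Isoforms on both sides of the minimum thus rested on a handful of reads per library. A mean over the 3 remaining libraries fell under 30 for 33 isoforms without the control, 25 without XRN1, 71 without SMG6/XRN1 and 67 without UPF1/XRN1. These isoforms met the minimum through the library named, so they had to be high in it. They are kept in the counts of every comparison below.

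Of the 896, 863 were above 0 in all 4 libraries, while 19 were listed at 0 in the control, 7 each in XRN1 and SMG6/XRN1, and 5 in UPF1/XRN1. Most were the single isoform of their locus (810), and 86 shared a locus with other assembled isoforms. The distinction matters for the values, since isoforms of 1 locus divide their reads by estimation. Of the 810, 99.0% to 99.6% had whole reads within 0.01 in each library.

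The isoforms are named here by their assembly number and by the reference loci next to them in the deposited locus numbering. No coordinates were used. The numbering followed the genome: 99.2% of successive reference loci lay on 1 chromosome and strand in GENCODE release 29, and 99.3% of those lay in rising start order. Tested on 43018 reference loci whose neighbours agreed, the neighbours gave the right chromosome and strand for 99.7%. By this measure 862 isoforms lay between 2 reference loci of 1 chromosome and strand, and 34 could not be so placed. Of the 34, 6 were given no neighbours at all. Their assembled locus also held an isoform matching the reference, or it lay at an end of the numbering. A flanking gene says where an isoform lies and not what it belongs to, and the distance to it was not measured. The sources used here do not say whether reads were counted by strand. Whether reads of a gene on the other strand were kept apart is therefore not known.

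Transcript length could be read indirectly from the ratio of reads to FPKM, because FPKM divides reads by length. On 781 reference loci with 1 isoform, 78.4% of the lengths so implied were within 1% of the annotated length, and 1 in 10 was off by over 23.1%. The 810 single-isoform loci had a median implied length of 1028 nt, with quartiles of 710 and 1450 nt. The 1285 single-isoform reference loci at the same minimum had a median annotated length of 1501 nt. Only 5 of the 810 were implied to be longer than 5000 nt, and the longest, TCONS_00051112 near SUGT1, came to 8386 nt. The plot of length against level shows the longer isoforms at higher signal (Spearman rho 0.471 over 810 isoforms), and signal is not divided by length. Below about 300 nt the ratio says little, and 25 isoforms lay there.

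**Figure D1:**
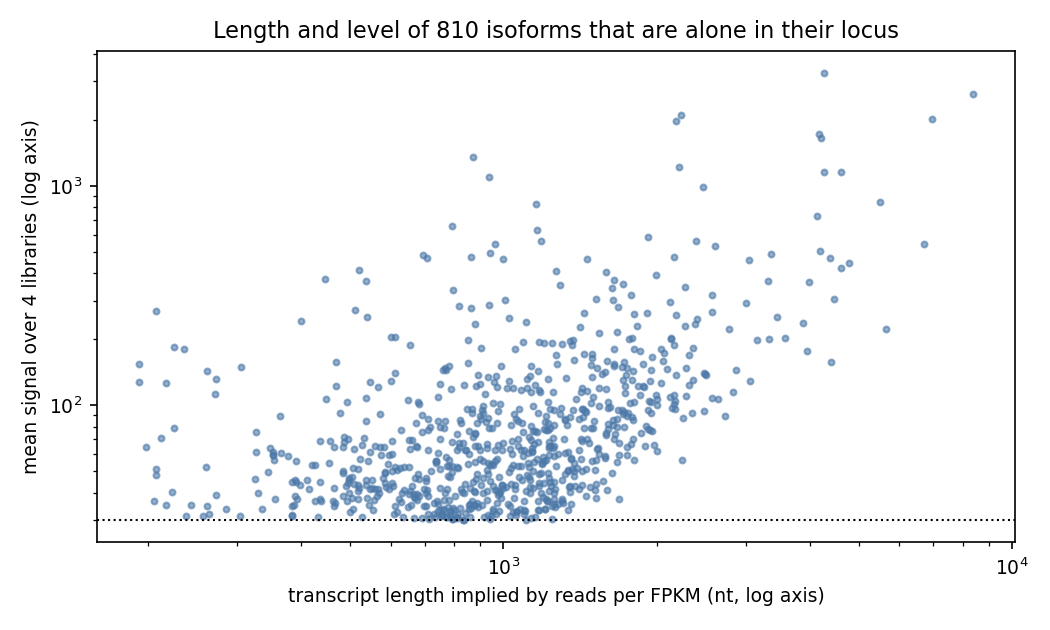
Implied transcript length (x axis, nt, log axis) against mean signal over the 4 libraries (y axis, log axis) for the 810 isoforms that are alone in their locus, 1 point each. The dotted line is the minimum of 30, the bulk lies between 710 and 1450 nt, and the longest is at 8386 nt.

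The highest of the 896 was TCONS_00006849 (locus XLOC_001636), between SFT2D2 and RP4-738P11.3 on chromosome 1, plus strand, with an implied length of 4263 nt. Its signal was 3295, 3167, 3698 and 2887, from 776 to 870 reads. The 4 libraries were close, and the ratio of SMG6/XRN1 to the control was 1.12 (95% interval of reads 1.02 to 1.23). Next came TCONS_00051112 (XLOC_011797), between SUGT1 and MIR759 on chromosome 13, with 3854, 1899, 2644 and 2113. It was highest in the control, and the library labelled XRN1 stood at 0.493 of the control (0.441 to 0.550). The control was the highest library for 2 of the 12 isoforms with the highest mean and the lowest for 7. Intervals of read ratios cover counting error only, here and below.

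Several of the highest isoforms were low in the control and alike in the other 3 libraries. TCONS_00156206 (XLOC_034608) lay between GUSBP1, a beta-glucuronidase pseudogene, and RP11-804N13.1 on chromosome 5. Its signal was 362, 2098, 1968 and 2470, and XRN1 stood at 5.79 times the control (4.64 to 7.29). The neighbouring locus XLOC_034607, TCONS_00156205, had 65.5, 405, 684 and 867, a ratio of 6.18 (3.67 to 11.0) between XRN1 and the control. Both isoforms had nearly the same implied length, 4169 and 4190 nt. Both rose in all 3 depleted libraries, and the second was higher in the co-depletions than in XRN1.

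TCONS_00002084 (XLOC_000495) had 890, 2531, 2449 and 2187. It lay between AGO3, which encodes an Argonaute protein of microRNA silencing, and TEKT2 on chromosome 1, and was implied to be 6965 nt long. Its XRN1 level was 2.84 times the control (2.44 to 3.32), and UPF1/XRN1, the lowest of the depleted libraries, stood at 0.864 of XRN1 (0.771 to 0.969). TCONS_00013645 (XLOC_003310), next to DBT, a subunit gene of branched-chain ketoacid dehydrogenase, had 1226, 2215, 2500 and 2440. Its XRN1 level was 1.81 times the control (1.57 to 2.08), short of 2-fold.

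Other highly read isoforms were nearly level. TCONS_00150499 (XLOC_033014), between SPATA5 and SPRY1 on chromosome 4, had 1962, 1863, 2121 and 1919. TCONS_00185223 (XLOC_042111), between CDCA2 and RP11-219J21.1 on chromosome 8, had 1603, 1454, 1773 and 1745. For both, the interval of each ratio to the control held 1, with SMG6/XRN1 at 1.08 (0.954 to 1.23) and 1.11 (0.963 to 1.27). TCONS_00078259 (XLOC_017780), next to the alanyl-tRNA synthetase gene AARS on chromosome 16, was highest in the control and lowest in UPF1/XRN1, at 1705, 1522, 1169 and 990. Its UPF1/XRN1 level was 0.580 of the control (0.497 to 0.678).

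**Figure D2:**
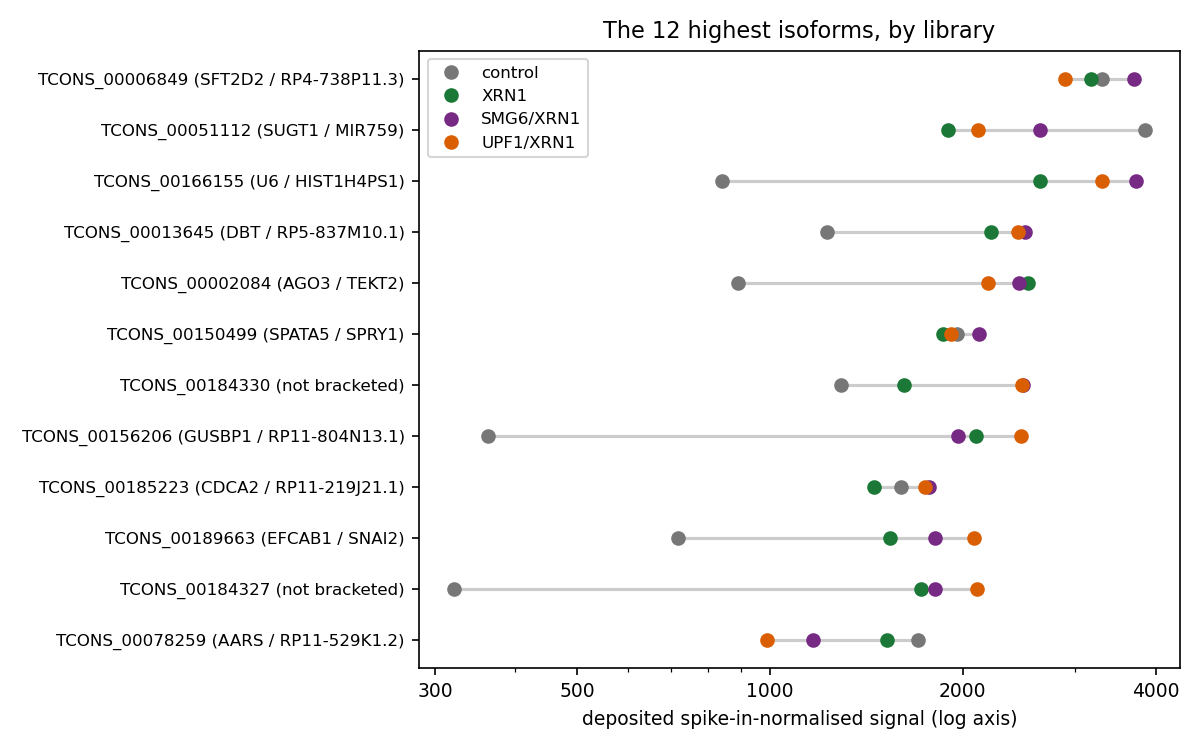
Deposited signal (x axis, log axis) of the 12 isoforms with the highest mean, 1 row each, and 1 point per library. Rows carry their flanking reference loci, except TCONS_00184330 and TCONS_00184327 of XLOC_041886. These are marked as not bracketed, having no flanks of 1 chromosome and strand. The control is lowest in 7 of the rows, among them the isoform between GUSBP1 and RP11-804N13.1 at 362 against 1968 to 2470, and highest for the one between SUGT1 and MIR759 at 3854.

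In the comparison of XRN1 depletion with the control, the isoforms split both ways. Of the 896, 219 (24.4%) were at least 2-fold higher in the library labelled XRN1 and 137 (15.3%) at least 2-fold lower. The median log2 change was -0.01. Over all 61922 isoforms, 24.4% were higher and 12.7% lower, with a median of 0.18, so the share that rose was close to that of all isoforms. Of the 810 alone in their locus 23.5% rose, beside 17.1% of all 2387 isoforms alone in theirs, which include the 810. Changes are log2((a + 1)/(b + 1)) of the signal. With 1 read worth about 4, isoforms of few reads pass 2-fold easily, and the share that rose was 28.6% at a mean of 30 to 60 and 19.4% at 120 or more, beside 31.4% and 20.8% of all isoforms in those ranges. Counting error alone was exceeded upward by 185 isoforms and downward by 131, where 37.8% and 19.9% of all isoforms, which were more deeply read, did so. In bulk RNA, fewer cells with a transcript and less of it per cell cannot be told apart.

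The largest rises of XRN1 over the control began from a few control reads, which a ranking by log2 change favours. TCONS_00007369 and TCONS_00007370 are adjacent loci, XLOC_001773 and XLOC_001774, between TSEN15, a tRNA splicing endonuclease gene, and a Y_RNA copy on chromosome 1. The first had 7.71, 174, 204 and 186, a ratio of 22.6 (5.89 to 193) from 2 control reads. The second had 11.6, 239, 196 and 160, a ratio of 20.7 (6.73 to 103) from 3 control reads. Both stayed high in all 3 depleted libraries. SMG6/XRN1 stood at 1.17 times XRN1 (0.760 to 1.81) for the first and 0.818 (0.544 to 1.22) for the second, both within counting error.

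TCONS_00168850 (XLOC_037928), between RP11-527F13.1 and the centromere protein gene CENPW on chromosome 6, had 19.3, 227, 480 and 458. It rose in 2 steps: 11.8-fold (4.75 to 37.6) from the control to XRN1 and 2.12-fold (1.52 to 2.97) from XRN1 to SMG6/XRN1. The step to UPF1/XRN1 was of like size, 2.02-fold (1.46 to 2.82). In the 2-isoform locus XLOC_039270, the isoform TCONS_00173732 was estimated at 0.01, 177, 189 and 489, which is under 1 read in the control. Which of the 2 isoforms took the control reads was settled by the estimation.

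The largest falls from the control to XRN1 began from more reads, which the same ranking favours. TCONS_00153360 (XLOC_033829), between SOWAHB and RP11-123J14.2 on chromosome 4, had 312, 64.8, 85.0 and 52.1, a ratio of 0.208 (0.113 to 0.358). TCONS_00122062 (XLOC_026520) lay at the HOXD cluster of developmental regulators, between EVX2 and HOXD-AS2, and had 235, 56.7, 111 and 89.3, a ratio of 0.241 (0.125 to 0.436). TCONS_00135026 (XLOC_029710), between PKDREJ and CELSR1 on chromosome 22, had 193, 52.6, 89.3 and 81.8, a ratio of 0.273 (0.136 to 0.510). In these 3 the control stood above every depleted library. TCONS_00079015 (XLOC_017914), next to the F-box gene FBXO31 on chromosome 16, was low in the XRN1 library alone, at 135, 36.4, 123 and 119.

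**Figure D3:**
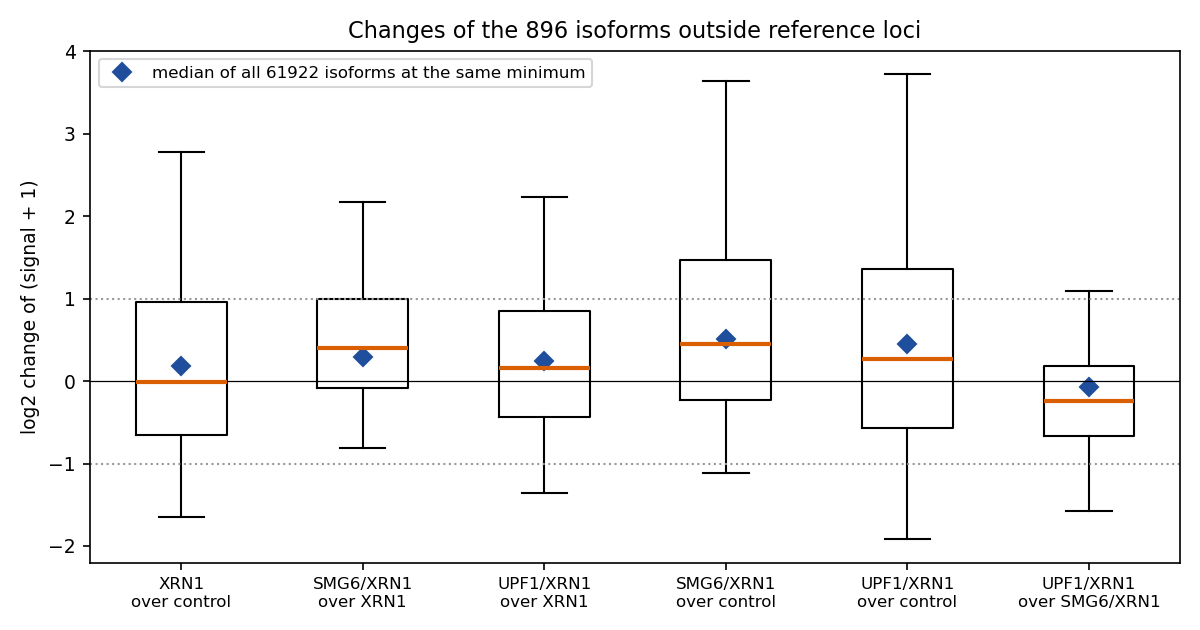
Log2 change of signal + 1 (y axis) of the 896 isoforms in each of 6 comparisons between libraries. Boxes span the quartiles with the median in orange, whiskers the 5th to 95th percentile, diamonds mark the median of all 61922 isoforms, dotted lines 2-fold. The median of the 896 is -0.01 for XRN1 over control and 0.45 for SMG6/XRN1 over control.

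From the library labelled XRN1 to that labelled SMG6/XRN1, the isoforms moved mostly up. Of the 896, 223 (24.9%) were at least 2-fold higher in SMG6/XRN1 than in XRN1 and 35 (3.91%) at least 2-fold lower. The median log2 change was 0.41. These values keep 71 isoforms that met the minimum of 30 only through SMG6/XRN1 and 25 that met it only through XRN1, so the choice itself favours rises. Over all isoforms 25.2% were higher, 9.37% lower and the median was 0.30. The share that rose was again close to that of all isoforms, while of the 810 alone in their locus 23.6% rose, beside 15.6% of all 2387. The read interval of the ratio lay above 1 for 232 isoforms and below 1 for 31, beside 43.3% and 15.9% of all isoforms. At a mean of 30 to 60, 33.2% rose, beside 37.1% of all isoforms there, and at 120 or more 12.1% rose, beside 19.3%. The comparison shares its XRN1 library with the one before, and each of the 6 comparisons shares a library with others.

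TCONS_00015740 (XLOC_003772), between GPATCH4 and RP11-284F21.7 on chromosome 1, had 54.0, 24.3, 162 and 179. SMG6/XRN1 stood at 6.65 times XRN1 (2.79 to 19.2) and 2.99 times the control (1.59 to 5.98), so its rise did not rest on the XRN1 library alone. TCONS_00019900 (XLOC_004988), next to CISD1, a mitochondrial iron-sulfur protein gene on chromosome 10, had 34.7, 68.8, 268 and 257, a ratio of 3.89 (2.25 to 7.09) to XRN1. Both isoforms were about equally high in the 2 co-depletions.

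Among the falls, TCONS_00018776 (XLOC_004642), next to the helicase gene FBXO18 on chromosome 10, had 65.5, 255, 102 and 115. TCONS_00013378 (XLOC_003237), between RP5-827O9.1 and BARHL2 on chromosome 1, had 65.5, 247, 140 and 126. Both were highest in the library labelled XRN1 and went back toward the control in the co-depletions, the first at 0.400 of XRN1 (0.239 to 0.649) and the second at 0.568 (0.360 to 0.881), short of 2-fold. TCONS_00189660 (XLOC_043297), between EFCAB1 and SNAI2 on chromosome 8, had 80.9, 158, 59.5 and 115 and was lowest in SMG6/XRN1.

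From the library labelled XRN1 to that labelled UPF1/XRN1, the isoforms moved both ways, more of them up. Of the 896, 189 (21.1%) were at least 2-fold higher in UPF1/XRN1 than in XRN1 and 84 (9.38%) at least 2-fold lower. The median log2 change was 0.16. These values keep 67 isoforms that met the minimum of 30 only through UPF1/XRN1 and 25 that met it only through XRN1. Over all isoforms 27.2% were higher, 11.6% lower and the median was 0.24. Of the 810 alone in their locus 19.5% rose and 9.14% fell, beside 14.6% and 7.25% of all 2387, so the order of the shares that rose was reversed there. The read interval lay above 1 for 198 and below 1 for 81, beside 41.2% and 22.8%. Set directly against SMG6/XRN1, 59 (6.58%) were at least 2-fold higher in UPF1/XRN1 and 134 (15.0%) lower, with a median of -0.24, where all isoforms had 12.6%, 13.1% and -0.07. In that comparison 5.31% of the 810 alone in their locus were higher and 14.6% lower, beside 3.35% and 8.92% of all 2387. For the 896 the read interval there lay above 1 for 61 and below 1 for 132, beside 22.7% and 30.9% of all isoforms. This split depended on the scaling: of the isoforms past 2-fold, 30.6% were higher in UPF1/XRN1 as deposited and 43.2% with each library scaled to the same total signal, where the median of the 896 was -0.11.

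Of the 232 isoforms with a mean of at least 120, 8 were at least 2-fold higher in UPF1/XRN1 than in SMG6/XRN1 (3.45%) and 13 lower (5.60%), beside 7.18% and 8.85% of all isoforms at that level. TCONS_00151470 (XLOC_033298), next to CDKN2AIP on chromosome 4, had 15.4, 36.4, 111 and 264, and UPF1/XRN1 stood at 7.25 times XRN1 (3.61 to 16.5). TCONS_00052778 (XLOC_012339), between SPRYD7 and MIR3613 on chromosome 13, had 50.1, 52.6, 162 and 335, a ratio of 6.36 (3.54 to 12.4) to XRN1. Both were over 2-fold higher in UPF1/XRN1 than in SMG6/XRN1, with log2 changes of 1.25 and 1.05.

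The largest falls were larger with UPF1 than any with SMG6 among single-isoform loci with a mean of at least 100 and no 0. TCONS_00058157 (XLOC_013650), between ACIN1 and CEBPE on chromosome 14, had 143, 113, 149 and 33.5, level in 3 libraries and at 0.295 of XRN1 (0.123 to 0.644) in UPF1/XRN1. TCONS_00158342 (XLOC_035160), next to TNFAIP8 on chromosome 5, had 197, 190, 115 and 55.8, a ratio of 0.293 (0.152 to 0.534). TCONS_00084257 (XLOC_018913), next to the MAP kinase kinase gene MAP2K6 on chromosome 17, had 281, 150, 132 and 44.6, a ratio of 0.298 (0.141 to 0.584). The last was highest in the control and lower in each depleted library.

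Against the control, 322 isoforms (35.9%) were at least 2-fold higher in SMG6/XRN1 and 61 (6.81%) lower, at a median log2 change of 0.45, beside 35.2%, 8.6% and 0.51 of all isoforms. In UPF1/XRN1 277 (30.9%) were higher and 126 (14.1%) lower, with a median of 0.27, beside 35.6%, 10.4% and 0.45. The read interval lay above 1 for 304 and below 1 for 79 in SMG6/XRN1, beside 52.4% and 13.9%, and for 268 and 135 in UPF1/XRN1, beside 49.3% and 19.3%. Of the 810 alone in their locus, 34.6% were at least 2-fold higher than the control in SMG6/XRN1 and 29.4% in UPF1/XRN1. Of all 2387 it was 24.8% and 22.6%. The 2 comparisons share the control library. Of the SMG6/XRN1 calls, 84.1% were higher as deposited and 71.9% after scaling to equal totals, which lowered the median of all isoforms from 0.51 to 0.23 and that of the 896 from 0.45 to 0.18. For UPF1/XRN1 over the control the same scaling lowered the median of the 896 from 0.27 to 0.13. Of the 270 longest of the 810 (1259 to 8386 nt), 36.7% rose in SMG6/XRN1 and 31.9% in UPF1/XRN1, and of the 270 shortest (192 to 811 nt) 32.6% and 30.0%. The mean signal of these groups differed, with medians of 108 and 47.5.

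The authors' deposited mark for NMD was set for 238 of the 896 isoforms (26.6%) and for 27.9% of all isoforms at the same minimum. Tested on the file, the mark was set exactly where both co-depletions were over 2 times the control, with 0 mismatches, so it repeats the comparison above and holds no separate evidence.

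Among single-isoform loci with a mean of at least 100 and no 0, the largest rise in both co-depletions on the log2 scale with the added 1 was that of TCONS_00168850 near CENPW, already given, at 24.9 times the control (10.4 to 78.2) in SMG6/XRN1 and 23.7 times (9.90 to 74.4) in UPF1/XRN1. TCONS_00082012 (XLOC_018512), next to CDK12, a kinase gene of transcription elongation on chromosome 17, had 15.4, 178, 276 and 331. Its SMG6/XRN1 level was 17.9 times the control (6.67 to 67.7), from 4 control reads. The 2 isoforms of XLOC_004332, between ACTBP11 and a U6 copy on chromosome 1, both rose over the control in all 3 depleted libraries: TCONS_00017747 had 10.9, 80.9, 194 and 175, and TCONS_00017748 had 8.33, 81.4, 218 and 102. From SMG6/XRN1 to UPF1/XRN1 the first was nearly level and the second fell by 1.09 on the log2 scale. All of these were already higher in XRN1 than in the control.

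Some isoforms were listed at 0 in the control. TCONS_00181268 (XLOC_041138) had 0, 101, 76.5 and 81.8, TCONS_00170248 (XLOC_038344), next to MBOAT1, had 0, 72.9, 63.8 and 123, and TCONS_00197007 (XLOC_045239), next to SPATA31A6, had 0, 81.6, 99.4 and 95.6. Each had 15 to 33 reads in every depleted library. No fold is given for them.

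By library, the control was the highest of the 4 for 221 of the 896 isoforms (24.7%), against 14.3% of all isoforms. SMG6/XRN1 was the highest for 327 (36.5%, against 34.8%), UPF1/XRN1 for 218 (24.3%, against 33.1%) and XRN1 for 130 (14.5%, against 17.8%). The control was also the most frequent lowest library, for 356 (39.7%, against 46.7%), and SMG6/XRN1 the least frequent, for 66 (7.37%, against 9.71%). These shares are a description of 4 libraries, with no test of the difference.

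Isoforms that shared a locus passed 2-fold more often than those alone in theirs, except for falls from the control to UPF1/XRN1 (11.6% against 14.3%). Of the 86, 48.8% were at least 2-fold higher in SMG6/XRN1 than in the control, against 34.6% of the 810 alone in their locus, and from SMG6/XRN1 to UPF1/XRN1 18.6% were higher and 18.6% lower, against 5.31% and 14.6%. All 2387 isoforms alone in their locus at the same minimum, which include the 810, had 24.8% higher in SMG6/XRN1 than in the control. Over all 61922 isoforms, most of which shared a locus, the share was 35.2%. From SMG6/XRN1 to UPF1/XRN1 12.6% of the 61922 were higher and 13.1% lower. A share over only the isoforms that share a locus is not given, so no exactly matching background stands beside the 86. At the locus with the most of them, XLOC_041886, with 5 isoforms and no pair of reference loci around it, TCONS_00184328 was estimated at 674, 96.4, 570 and 599, and TCONS_00184326 at 16.2, 615, 596 and 0. TCONS_00184329 was estimated at 0, 248, 0 and 0. The sum over the locus was 2301, 4297, 5454 and 5185, with log2 changes of 0.90 for XRN1 and 1.24 and 1.17 for the co-depletions over the control. Single isoforms there changed by far more than their locus, in both directions.

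At XLOC_020290, with 3 isoforms, the sum was nearly level, at 2058, 1976, 1921 and 1555, while TCONS_00092406 went from 767 to 406, 157 and 403 and TCONS_00092405 from 259 to 204, 747 and 572. The 3 isoforms of XLOC_037144, between a U6 copy and HIST1H4PS1 on chromosome 6, had a summed signal of 1014, 3288, 4833 and 5293, log2 changes of 1.70, 2.25 and 2.38 over the control. Its main isoform TCONS_00166155, at 841, 2641, 3724 and 3295, rose over the control with the sum and, unlike the sum, was lower in UPF1/XRN1 than in SMG6/XRN1. At XLOC_007481, between MIR3166 and GRM5-AS1 on chromosome 11, all 7 isoforms summed to 131, 458, 769 and 766, of which 3 isoforms outside the reference held 76.1, 231, 533 and 418. The sums of these last 2 loci rose in all 3 depleted libraries.

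Many of the loci lay next to each other. In the numbering 618 stood alone, 82 pairs of neighbours stood together and 24 runs held 3 or more, with 78 isoforms in these runs. Neighbouring loci on 1 strand can be pieces of 1 transcript, so members of a run are not independent. In 3 of these runs every isoform was at least 2-fold higher in XRN1 than in the control, and in 1 run every isoform was at least 2-fold lower. Among the 3 is a run with XLOC_005418, an assembled locus that also holds an isoform matching the reference. Between ABI1, an actin regulator gene, and ANKRD26 on chromosome 10, the 4 loci had 3.85, 11.6, 15.4 and 27.0 in the control and 28.3, 170, 113 and 109 in XRN1. All 4 rose in each depleted library over the control, and their sum was 57.8, 421, 476 and 301.

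The 3 loci between ZMAT5 and ASCC2 on chromosome 22 summed to 34.7, 142, 395 and 283. All 3 rose from the control to XRN1 and again from XRN1 to SMG6/XRN1. The 3 loci between the zinc finger genes ZNF320 and ZNF888 on chromosome 19 summed to 925, 1522, 2071 and 2984, and each of the 3 was lowest in the control and highest in UPF1/XRN1. Its first locus, XLOC_023431, had 632, 1041, 1318 and 1875.

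Other runs were low in the library labelled XRN1. The 5 loci between IRAK1BP1 and RP11-46B11.5 on chromosome 6 summed to 1172, 753, 1169 and 937. All 5 were lower in XRN1 than in the control, 1 of them by 2-fold, at 57.8 against 12.1, and all 5 were higher again in both co-depletions. The 3 loci between DCAF13 and RP11-1C8.5 on chromosome 8 summed to 154, 72.9, 234 and 156, and all 3 fell by 2-fold in XRN1 and rose by 2-fold in SMG6/XRN1. The 3 loci next to the homeobox gene GSC on chromosome 14 summed to 131, 89.1, 200 and 40.9, lowest in UPF1/XRN1 for every locus.

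**Figure D4:**
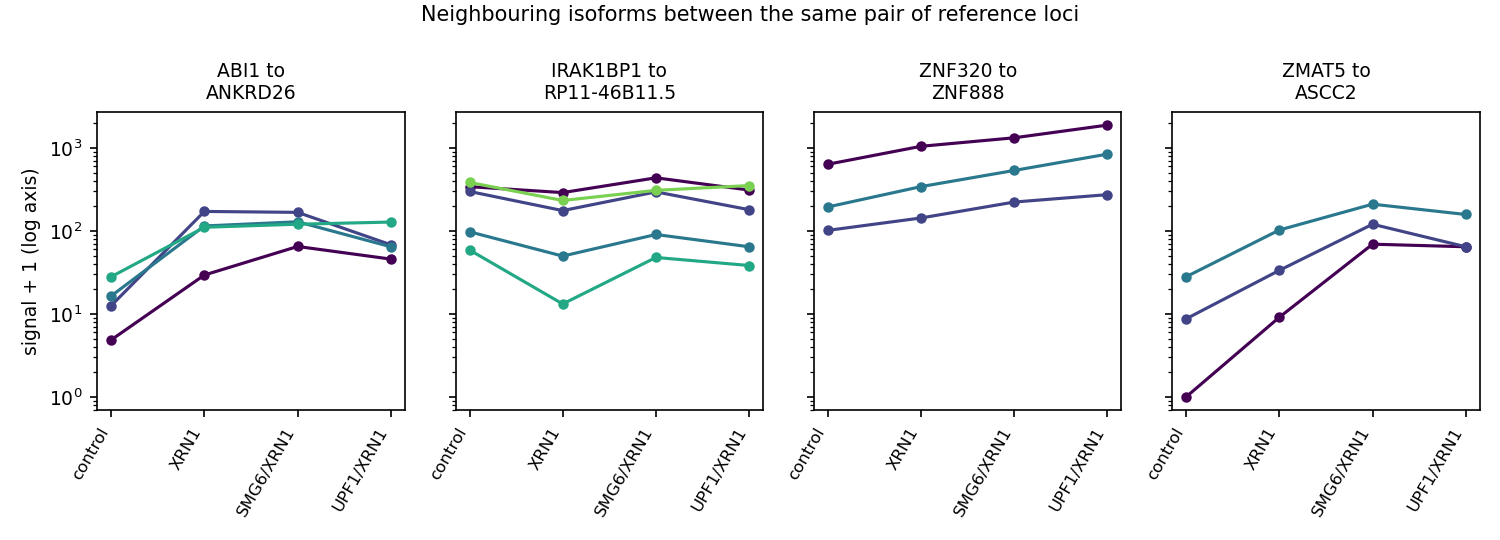
Signal + 1 (y axis, log axis) in the 4 libraries (x axis) for 4 runs of neighbouring loci, 1 line per isoform, with the flanking reference loci as panel titles. Lines join the same isoform across libraries, and no time order is meant. Each line in the ABI1 panel rises from the control to XRN1, and each in the IRAK1BP1 panel goes down there.

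The loci were spread unevenly over the chromosomes, relative to the expressed reference loci there. Over all chromosomes there were 836 placed loci for 15981 expressed reference loci, or 5.23 per 100. Chromosome 6 had 11.3 per 100 (95 loci), chromosome 13 had 9.72 (28 loci) and chromosome 5 had 9.03 (71 loci). The lowest were chromosome 15 with 2.40 (14 loci), chromosome 16 with 2.48 (18 loci), chromosome 11 with 2.52 (21 loci) and chromosome 19 with 2.98 (31 loci). Neighbouring loci are counted singly here. The rate divides by expressed reference loci, 288 on chromosome 13 and 1039 on chromosome 19, so it also depends on their number. The length between genes was not measured.

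Chromosomes differed in the isoforms' changes too, on small numbers. The 24 isoforms placed on chromosome X had median log2 changes over the control of 2.05 (SMG6/XRN1) and 1.62 (UPF1/XRN1), and 16 of them rose by 2-fold in SMG6/XRN1 (66.7%). The 1856 other isoforms placed on X had medians of 0.31 and 0.21, and 28.3% rose. An example is TCONS_00201416 (XLOC_046607), next to RAB40AL, with 200, 352, 650 and 632. TCONS_00205191 (XLOC_047876), between HMGB3P31 and FAM127C, had 11.6, 101, 145 and 112. The 12 on chromosome 22 had medians of 1.93 and 1.77, against 0.60 and 0.60 for 1341 others, and 3 of the 12 were the run between ZMAT5 and ASCC2. Both chromosomes were singled out after their values were seen.

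**Figure D5:**
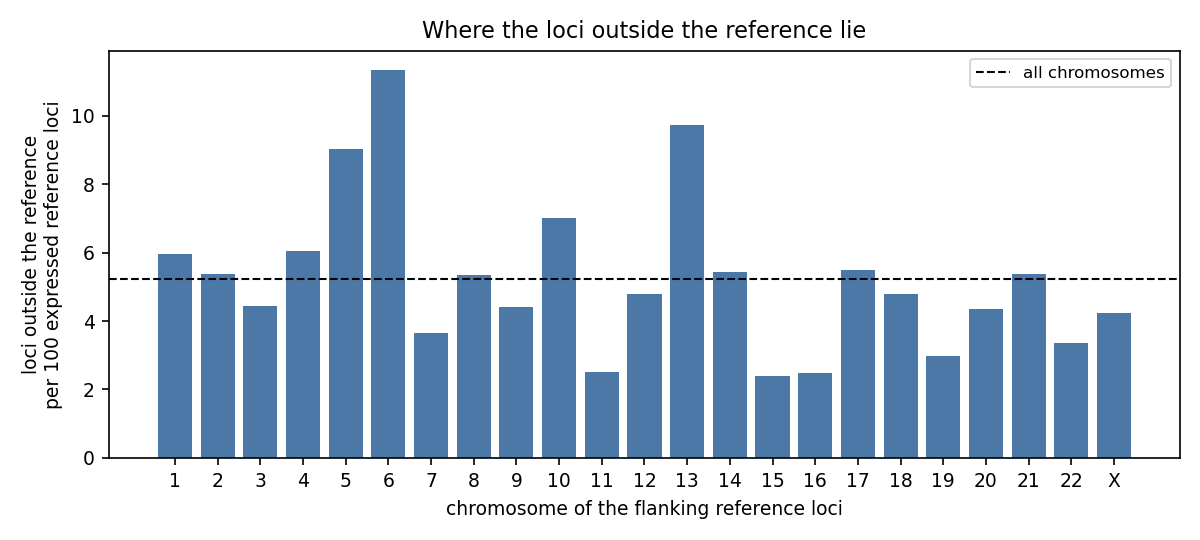
Loci outside the reference per 100 expressed reference loci (y axis) by chromosome of the flanking reference loci (x axis). The dashed line is the value over all chromosomes, 5.23, and the highest bar is chromosome 6 at 11.3.

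On the scale of FPKM, which divides by length, the 860 loci were again low. Their mean over the 4 libraries had a median of 0.552 FPKM, with quartiles of 0.345 and 0.981, against a median of 1.48 over all 22266 loci of the gene table. A mean of at least 1 FPKM was reached by 210 (24.4%), against 54.6% of all loci. The highest, XLOC_043059 between MTMR7 and MTUS1 on chromosome 8, had 301, 193, 249 and 421 FPKM but a signal of only 150, 101, 136 and 227. Its implied length of 192 nt is at the limit of the measure, so its FPKM is not to be read as a high level.

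Among the 210 loci, 18 had at least 2-fold more FPKM in XRN1 than in the control and 2 had less, on log2((a + 1)/(b + 1)), where 4.11% and 0.37% of all 12164 loci at this level did. In SMG6/XRN1 33 were higher than in the control and 2 lower (9.3% and 0.263% of all), and in UPF1/XRN1 41 and 3 (10.2% and 0.575% of all). At this level 15.7% and 19.5% of the 210 were thus 2-fold higher in the 2 co-depletions. Over all 860 loci the shares were 5% and 6.51%, close to the 5.28% and 5.88% of all 22266 loci. With 1 added to each value, loci under 1 FPKM are held back from 2-fold. The minimum of 1 FPKM was on the mean over the 4 libraries, so loci could reach it through the depleted libraries. From XRN1 to SMG6/XRN1 8 were higher and 1 lower (1.36% and 0.173% of all), and to UPF1/XRN1 11 and 3 (2.52% and 0.534% of all). From SMG6/XRN1 to UPF1/XRN1 6 were higher and 1 lower (0.312% and 0.312% of all).

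The flanking genes' own changes were weakly related to those of the isoforms. For 550 isoforms whose flank ahead of them on their strand was itself expressed, Pearson's r between the 2 log2 changes was 0.13 for XRN1 over the control and 0.18 and 0.23 for the co-depletions over the control. For 372 with an expressed flank after them it was 0.15, 0.16 and 0.14. The points share their libraries and neighbouring isoforms share a flank, so these are descriptions across isoforms.

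As a reference for decay in these libraries, 13 non-coding snoRNA host genes, a class with known targets of NMD, were set beside them in FPKM. Of the 13, 8 were at least 2-fold higher in XRN1 than in the control, 10 in SMG6/XRN1 and 11 in UPF1/XRN1, and none was at least 2-fold lower. Of all 12164 loci with a mean of at least 1 FPKM, 4.11%, 9.3% and 10.2% were 2-fold higher. From XRN1 7 of the 13 rose at least 2-fold to SMG6/XRN1 and 8 to UPF1/XRN1, beside 1.36% and 2.52% of all loci at that level. GAS5 had 176, 412, 1482 and 1353 FPKM. SNHG16, at 65.5, 70.3, 56.5 and 58.4 FPKM, and DANCR, at 26.6, 27.3, 24.8 and 24.3, were nearly level. Of 9 other genes known as NMD targets, 4, 7 and 8 were at least 2-fold higher than the control in the same order. From XRN1 0 rose by 2-fold to SMG6/XRN1 and 2 to UPF1/XRN1. All 9 rose by less to SMG6/XRN1, with log2 changes of 0.04 (MAP3K14) to 0.61 (UPP1). SRSF6 was among those higher than the control, with 85.5, 177, 264 and 352 FPKM. In SMG6/XRN1 over the control the median log2 change of FPKM was 2.30 for the snoRNA hosts and 1.24 for the other targets, and from XRN1 to SMG6/XRN1 it was 1.04 and 0.39. The medians of the 896 isoforms are of spike-in-normalised signal and are not on this scale.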

How the data were processed

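RNA-seq of cytoplasmic poly(A)+ RNA was used from 4 libraries, 1 per group, grouped by their labels. Per the submitters' processing notes, CASAVA 1.8.2, Bowtie 0.12.7, TopHat2 2.0.6, Cufflinks 2.0.2 and hg19 were used, with no role or order given. The authors deposited a spike-in-normalised signal per isoform and FPKM per assembled locus. How the spike-in factor was computed was not given in these sources. The authors' deposited identifiers hold the class codes and the mark for NMD.

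Estimated reads are signal divided by the worth of 1 read in that library, found from the steps of low values. They are shared among isoforms by estimation, so no count test was run. No p-values were computed, since groups have no replicates. Changes are log2((a + 1)/(b + 1)), called at 2-fold. Ratios carry exact conditional binomial 95% intervals. A self-test on simulated data was run first. Analysis used Python 3.11.15, pandas 2.3.3 and scipy 1.17.1.

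The isoforms and gene lists were chosen with earlier results of these data known. Named isoforms were the 12 highest, then, at a mean of at least 100 and no 0, the 5 largest rises and falls of each main comparison and the 8 largest joint rises of the co-depletions. The 8 loci with the most members, the 3 isoforms on each side of the minimum and the 5 highest at 0 in the control completed the rule. Not every isoform it picks is described. Isoforms of runs, of chromosome X and of the locus highest in FPKM were named after their values were seen. Flanking loci came from the order of the deposited locus numbers, checked against GENCODE release 29. Alternatives were another pseudocount, other minimums, equal total signal, sums per locus, isoforms above 0 in every library and, added after seeing the data, single-isoform loci.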

Additional observations from a re-analysis of the deposited data

How the results depend on the processing

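In each comparison the larger of the 2 shares, at least 2-fold higher or lower, stayed the larger under every alternative run. The median log2 change of the isoforms for XRN1 over control, near 0, did change sign. It was 0.06 with no minimum, 0.03 at a mean of at least 100, 0.02 summed per locus and below 0 otherwise. For UPF1/XRN1 over SMG6/XRN1 the median of all isoforms went from -0.07 to 0.05 with equal total signal. With a pseudocount of 10 the shares for XRN1 over control were 19.3% higher and 10.5% lower, for SMG6/XRN1 over XRN1 19.9% higher, for UPF1/XRN1 over XRN1 17.7% and 7.25%, for SMG6/XRN1 over control 32.6% higher, for UPF1/XRN1 over control 11.4% lower and for UPF1/XRN1 over SMG6/XRN1 4.80% and 10.3%. At a mean of at least 100 (285 isoforms) they were, in the same order, 21.1% and 7.72%, 13.7% and 1.75%, 14.0% and 5.96%, 4.91% lower for SMG6/XRN1 over control, and 3.86% and 7.37% for UPF1/XRN1 over SMG6/XRN1. With no minimum (1252 isoforms) they were 27.6% and 18.6%, 31.5% and 6.95%, 27.7% and 12.7%, 40.8% and 10.1%, 36.6% and 17.1%, and 11.6% and 20.3%. With equal total signal XRN1 over control had 18.3% lower, SMG6/XRN1 over XRN1 21.3% higher, SMG6/XRN1 over control 29.4% and 11.5%, UPF1/XRN1 over control 17.7% lower and UPF1/XRN1 over SMG6/XRN1 8.93% and 11.7%. There the median log2 change of the isoforms was -0.13 for XRN1 over control (-0.01 as deposited) and 0.27 for SMG6/XRN1 over XRN1 (0.41). The order of the co-depletions over XRN1 also depended on the setting: rises with SMG6 and UPF1 were 223 and 189 as deposited, 191 and 188 with equal totals and 28 and 28 at a mean of at least 120. Of all isoforms 25.2% and 27.2% rose as deposited, and 19.3% and 21.0% at a mean of at least 120. For the pseudocount of 10, the other minimums and equal totals the 2-fold shares of all isoforms are not given. Those settings therefore show no difference between the isoforms outside the reference and all isoforms. A higher minimum and a larger pseudocount both leave fewer low isoforms past 2-fold by their construction. For the shares that moved under equal totals, the cause was not tested. Sums per locus, isoforms above 0 in every library and single-isoform loci moved none of these shares beyond its counting interval. No paired analysis was possible because each group has 1 RNA-seq library, and for the same reason no library could be left out. Depth limits the set: a read was worth 3.72 to 4.25, against a minimum of 30.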
